A study of Mus musculus with 2 samples.

Results

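The cytoplasmic ribosomal protein genes were examined in single cells of mouse subcutaneous tumours. Members were the genes in the deposited tables whose symbol is Rpl, Rps or Rplp followed by a number, with an optional a, x, y or l and a further digit, with pseudogenes left out and with at least 20 UMIs over both libraries (a UMI is a tag that marks 1 captured RNA molecule). Of 82 genes with such a symbol 81 passed, out of 18252 genes with at least 20 UMIs and 32285 listed. Just inside the minimum stood Rpl3l with 40 UMIs, just outside it Rpl10l with 0, and the next member, Rpl29, had 16889. The members comprise 50 genes of the large subunit and 31 of the small subunit. Rpsa, Fau and Rpl36al, which also encode ribosomal proteins, and Rack1, a ribosome-bound scaffold, fall outside the naming pattern and were followed separately.

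Each diet was represented by 1 library: tumours of mice on a control diet, and tumours of mice on a diet without serine and glycine (SG-free), a pair of amino acids that cells can also make. The groups were read from the abbreviations CT and SG in the titles together with the design text. The sources used here do not give the strain, the age, the tumour line or how many mice each library holds, and the protocol text in the labels speaks of human cardiac septal tissue, which disagrees with the mouse tumour named elsewhere in them. No difference between the diets could therefore be set against a spread between animals, no test was possible, and every interval below is a 95% interval that covers counting error only.

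A ribosome joins a small subunit, which reads the mRNA, to a large subunit, which forms the peptide bond, and each protein of a subunit is needed in about equal numbers. Their mRNAs are short, very abundant and long-lived, and in mammals most begin with a C followed by a run of pyrimidines, the 5′ terminal oligopyrimidine (TOP) tract, through which the kinase mTORC1 and the protein LARP1 control their translation and stability. A few members have paralogs, such as Rpl39l, Rpl22l1 and Rps27l, with tissue-dependent expression.

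The sequence around the annotated start was searched for short motifs, each of which was absent from most members with a window. RefSeq promoter windows (build GRCm38.p6, 250 bases before to 50 after the start) were available for 61 of the 81 members. The pyrimidine run CTCTTT lay on the gene's own strand within 50 bases of the start in 19 of these 61 members (31.1%), against 4.68% of 27025 genes with a window. On the other strand it was found in 1 member (1.64%) against 4.46% of genes, and on either strand in 32.8% of members against 8.88%. CTTTCC, which overlaps CTCTTT in the string CTCTTTCC, gave 31.1% of members against 5.43% of genes on the gene's strand and 34.4% against 10.3% on either strand. CCGGAAG, the core bound by ETS-family factors, was present on either strand of the whole window in 25 members (41.0%) against 9.93% of genes. The motifs were chosen after windows of members had been read, a choice that favours a higher percent in members than in all genes. Windows of 4 members are shown as examples with the pyrimidine run near the annotated start. In other members, such as Rpl18 and Rps9, the run lay at least as near as in Rps26. Capitals mark CTCTTT, and positions are in GRCm38.p6.
Rpl28 (chr7:4792953-4792982, plus strand): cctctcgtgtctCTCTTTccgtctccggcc
Rpl35 (chr2:39005114-39005143, minus strand): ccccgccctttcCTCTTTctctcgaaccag
Rps6 (chr4:86857350-86857379, minus strand): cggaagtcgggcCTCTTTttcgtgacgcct
Rps26 (chr10:128626484-128626513, minus strand): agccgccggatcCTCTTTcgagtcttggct
A match of these letters is a description of the window and not evidence of a functional tract. The median log2 ratio between the diets in presumed tumour cells, introduced below, was -0.15 in the 19 members with CTCTTT and -0.22 in the 42 without it.

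After filtering, 13588 control and 19106 SG-free cells were kept, with medians of 11310.5 and 7305 UMIs per cell. Clustering left out the genes of the naming pattern and their listed pseudogenes, so that the members did not shape the classes, and gave 23 clusters. Ribosomal protein genes outside the pattern, such as Rpsa, stayed in. The class of presumed tumour cells (10795 and 14029 cells, 11 clusters) was made of the clusters that met no other marker list. It had the leukocyte marker Ptprc at 0.716 to 1.81 CPM in its clusters and held the tumour-marker genes Hmga2, Rhox5 and Krt20. The presumed tumour cluster led by Aspn, Ogn and Cp also had the fibroblast gene Dcn among its leading genes. Its tumour-marker genes were at 75.96% and 67.5% of the level of the whole class (control, SG-free). They were at 63.7% and 76.6% in a cluster led by haemoglobin genes, and at 53.8% and 70.6% in one led by Gadd45b and Cxcl1. The other classes carry names from their markers and are called "-like". The libraries shared 87 barcodes (0.589% and 0.421% of barcodes). The SG-free library was shallower per cell in most classes. Shares were compared after drawing 1000 UMIs at random from each cell that had at least 1000. This gives each cell the same weight and leaves out shallower cells. It does not change the expected share of a cell, so a link between depth and share remains.

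Ribosomal protein mRNA took up a smaller share of the UMIs in the SG-free library in most classes, among them the presumed tumour cells and the larger immune classes. In presumed tumour cells the share at 1000 UMIs per cell was 21.6% in the control library and 19.7% in the SG-free library, a log2 ratio of -0.13 (-0.131 to -0.126). The middle 50% of cells lay between 18.6% and 24.1% in the control library and between 16.9% and 22.3% in the other, so the distributions overlapped widely, and 67.6% of SG-free cells lay below the control median. Monocyte/macrophage-like cells had a lower level and a wider gap, with 12.7% against 10.7% and a log2 ratio of -0.24 (-0.253 to -0.236). T-like cells held 18.0% and 16.7%, a log2 ratio of -0.11 (-0.121 to -0.100).

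The remaining classes were smaller. NK-like cells had 18.2% and 15.2% (log2 -0.26) and dendritic-like cells 15.3% and 13.3% (-0.21). Fibroblast-like cells had 15.01% and 13.4% (-0.16). In endothelial-like cells the shares were 12.02% and 11.8%, and the interval of their log2 ratio, -0.081 to 0.018, held 0. There the unthinned ratio was 0.08, opposite in sign, from 46 and 76 cells. B/plasma-like cells had 18.6% and 15.4% (-0.27), from 16 and 183 cells with 1000 UMIs, and mast-like cells 15.2% and 14.4% (-0.08), from 41 and 29 such cells. In order of level, presumed tumour cells stood highest in both libraries. In the control library the lymphocyte classes followed and the neutrophil-like, endothelial-like and monocyte/macrophage-like cells were lowest, with dendritic-, mast- and fibroblast-like cells close together between them. Over all clusters the thinned share was lower in the SG-free library in 22 of 23, with an interval wholly below 0 in 21.

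Neutrophil-like cells went the other way, from few cells of low depth. Of 123 and 198 cells only 34 and 81 had 1000 UMIs, and these held 6.69% and 17.0% ribosomal protein UMIs (log2 1.34, 1.28 to 1.40). Over all cells of the class, not thinned, the median share per cell was only 3.25% and 4.72%, so that the pooled values rest on the deeper cells. In the same class the tumour-marker genes stood at 45.1% and 86.5% of their level in presumed tumour cells, and Malat1 with Neat1 at 11681 and 6873 CPM. The part of tumour RNA in this share was not tested.

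**Figure D1:**
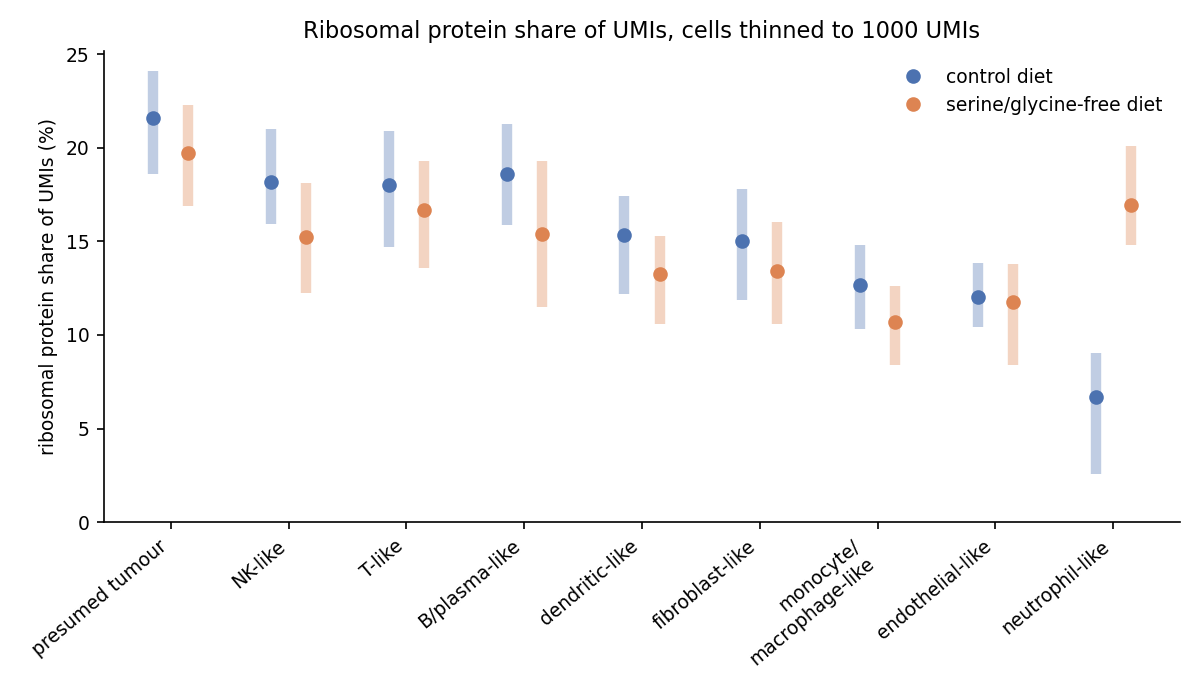
Ribosomal protein share of UMIs (%, y axis) by cell class (x axis) and diet after thinning each cell to 1000 UMIs. Points are pooled shares and bars span the middle 50% of cells. Presumed tumour cells are highest in the control library (21.6%), and the SG-free point lies below the control point in every class except neutrophil-like cells.

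Other measures moved with the share. In presumed tumour cells the median depth was 12788 and 8838 UMIs, mitochondrial UMIs were 4.47% and 4.0%, and Malat1 with Neat1, long RNAs kept in the nucleus, were at 5359 and 4979 CPM. In monocyte/macrophage-like cells the tumour-marker genes stood at 5.10% and 8.77% of their level in presumed tumour cells, and in T-like cells at 25.9% and 45.0%. A T-like cluster led by Gm2682 and Skap1 carried much of this RNA, at 45.4% and 71.5% of the tumour level. The T-like cluster led by Cd3g and Trbc2 carried little of it, 6.53% and 7.38%, and had shares of 17.6% and 15.97% (log2 -0.14). Monocyte/macrophage-like cells with no tumour-marker UMI (1213 and 1535 cells) had 12.7% and 10.47%, a log2 ratio of -0.27. Thinning does not remove a link between depth and share. The part of depth and mitochondrial UMIs in the shares of the classes was not tested. Bins of depth in presumed tumour cells and other denominators are given here and in the closing section.

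Within the presumed tumour cells the share was lower on the SG-free diet in all 11 clusters, with log2 ratios from -0.29 to -0.05. The cluster led by haemoglobin genes, Fdps and Ung had the highest share, 28.2% in the control library and 23.0% in the other, and also the widest gap. Its level of Malat1 with Neat1 was the lowest of the presumed tumour clusters, 660 and 1201 CPM. The tumour-marker genes stood there at 63.7% and 76.6% of the level of the whole class. The cluster led by Cxcl1, Cryab, Ndrg1 and Hmox1, genes of stress and low oxygen, showed the narrowest gap, 23.4% and 22.6%. An interferon-response cluster led by Ifit1 and Ifit3 followed, with 21.5% and 20.4% (log2 -0.07). Another cluster, with the interferon markers Iigp1 and Gbp2b among its leading genes, had a wider gap, 21.6% and 19.5% (log2 -0.15). The mitotic clusters led by Ube2c and Cenpf (20.4% and 18.7%) and by Ccnf and Mki67 (19.3% and 17.5%) and the cluster led by Aspn, Ogn and Cp (19.9% and 17.4%) had the lowest shares in the control library. Mitotic cells were the deepest, with medians of 16453 and 18222 UMIs in the control library. The order of the clusters was described only, since cells of 1 library are not replicates.

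Depth itself went with the share. Among control tumour cells the unthinned share went down bin by bin from 24.0% at 2000 to 4000 UMIs per cell to 19.8% at 24000 UMIs and over. Among SG-free tumour cells it was 20.9% at 4000 to 8000 UMIs, 18.3% at 16000 to 24000 UMIs and 18.8% in the deepest bin. Below those depths the shares were lower again: 19.5% in the 1061 SG-free cells at 2000 to 4000 UMIs, and 19.3% and 16.7% in the 52 control and 145 SG-free cells at 500 to 2000 UMIs. In each of the 7 bins the SG-free share was the lower of the pair, by -0.08 in the deepest bin and -0.30 at 2000 to 4000 UMIs on the log2 scale.

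**Figure D2:**
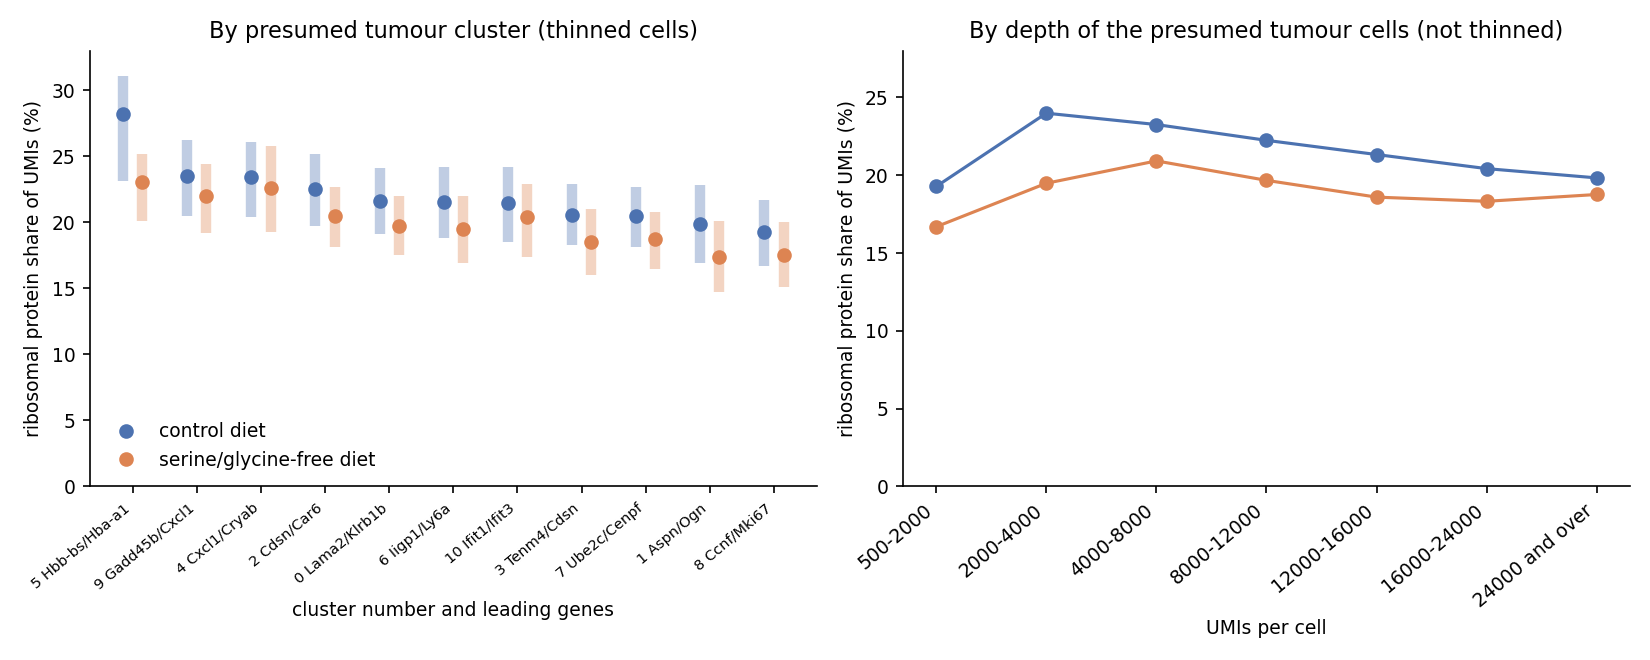
Left, ribosomal protein share of UMIs (%) in each presumed tumour cluster, named by number and leading genes, after thinning to 1000 UMIs; points are pooled shares and bars the middle 50% of cells. Right, the unthinned share by bins of UMIs per cell. The SG-free library lies below the control library in all 11 clusters and all 7 bins.

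Single members were compared by summing UMIs over the cells of a class and scaling to CPM, the UMIs of a gene per 1000000 UMIs of that class. The ratio is the log2 of SG-free over control CPM with 0.5 UMI added to each sum. These are differences of 1 gene between libraries. UMIs count molecules from their 3′ end. How fully each member was captured and its reads matched was not measured, so counts of different members are not levels that can be compared. As counts only, the 5 members with the most UMIs over both libraries were Rps3a1 (4.57% of all ribosomal protein UMIs), Rps4x (4.12%), Rpl13 (4.03%), Rplp0 (3.32%) and Rpl8 (3.21%).

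In presumed tumour cells 69 of 81 members were lower in the SG-free library and 12 higher, against 44.7% of all 16489 genes with at least 20 UMIs that were lower. The median log2 ratio of the members was -0.20, with the middle 50% from -0.28 to -0.10, while the median of all genes was 0.03. A ratio of -0.3 or lower was reached by 14 members, against 13.8% of all genes, and a ratio of 0.3 or higher by 1 member, against 17% of all genes. The share of members past the lower limit was thus near that of all genes, and few members lay past the upper one. Large-subunit members had a median of -0.18 and small-subunit members of -0.22. The ratio of large- to small-subunit UMIs in these cells was 1.46 in the control library and 1.45 in the SG-free library.

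Several abundant or central large-subunit members had ratios near 0, above the members' median. Rpl13 was at 8214 and 8253 CPM (log2 0.01). Rpl8, a protein near the peptidyl transferase centre, was at 6794 and 6344 CPM (-0.10). Rpl3, which also lines that centre, was at 4607 and 4819 CPM (0.06), and Rpl5, part of the 5S ribonucleoprotein that can bind Mdm2, at 4028 and 4098 CPM (0.02). Other large-subunit members with many UMIs lay further below 0. Among them were Rpl9 at 6234 and 5496 CPM (-0.18), Rpl12 at 5089 and 4024 CPM (-0.34) and Rpl15 at 4157 and 3314 CPM (-0.33).

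The P-stalk, which recruits the elongation factors, split apart. Rplp0, the stalk base, was at 6094 CPM in the control library and 7414 CPM in the other, a log2 ratio of 0.28 (0.279 to 0.287), and it was higher in 11 of 11 tumour clusters (0.12 to 0.40). Rplp1, whose dimers with Rplp2 sit on that base, was at 3439 and 2660 CPM (-0.37) and lower in 11 of 11 clusters. Rplp2 was at 1276 and 1103 CPM (-0.21), at the median of the members.

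Members whose ratio lay 0.3 or more from the members' median, with a counting interval that did not hold it, numbered 6 of 81. By the same rule 20.4% of all genes departed from the median of all genes. A single member departed downwards. Rps18, a protein of the small-subunit head, was at 2046 CPM in the control library and 1351 CPM in the SG-free library, a log2 ratio of -0.60 (-0.606 to -0.590), and it was the lowest member in presumed tumour cells. Its gene lies at chr17:33951999-33956001 (mm10, minus strand, 5 exons). The ratio was between -0.67 and -0.52 in the 11 tumour clusters, and it was -0.50 in T-like, -0.63 in NK-like, -0.64 in monocyte/macrophage-like, -0.49 in dendritic-like and -0.63 in fibroblast-like cells. Rps29, a short zinc-binding protein of the same subunit head, came next at 1625 and 1194 CPM (-0.44), which lay less than 0.3 from the members' median.

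The other 5 departing members lay above the median. Rps3a1 was at 8912 and 9924 CPM (log2 0.16), Rps2 at 5301 and 5790 CPM (0.13) and Rps4x, the X-linked copy of the gene for S4, at 8120 and 8729 CPM (0.10). Rps3a1 and Rps2 were higher in 11 of 11 tumour clusters and Rps4x in 10 of 11. Rplp0, given above, also departed. The widest departure was Rpl29, at only 42.0 and 57.2 CPM (0.45, interval 0.40 to 0.49). The annotation holds 7 pseudogenes at least 98% identical to the Rpl29 coding sequence over 90% of its length, none of them among the features of the tables. Reads that match both the gene and a copy may be dropped or credited to the gene, so the count is uncertain. The same limit holds for the other departing members, with 9 such copies for Rps2, 5 for Rps3a1, 2 each for Rps18 and Rps4x and 1 for Rplp0.

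**Figure D3:**
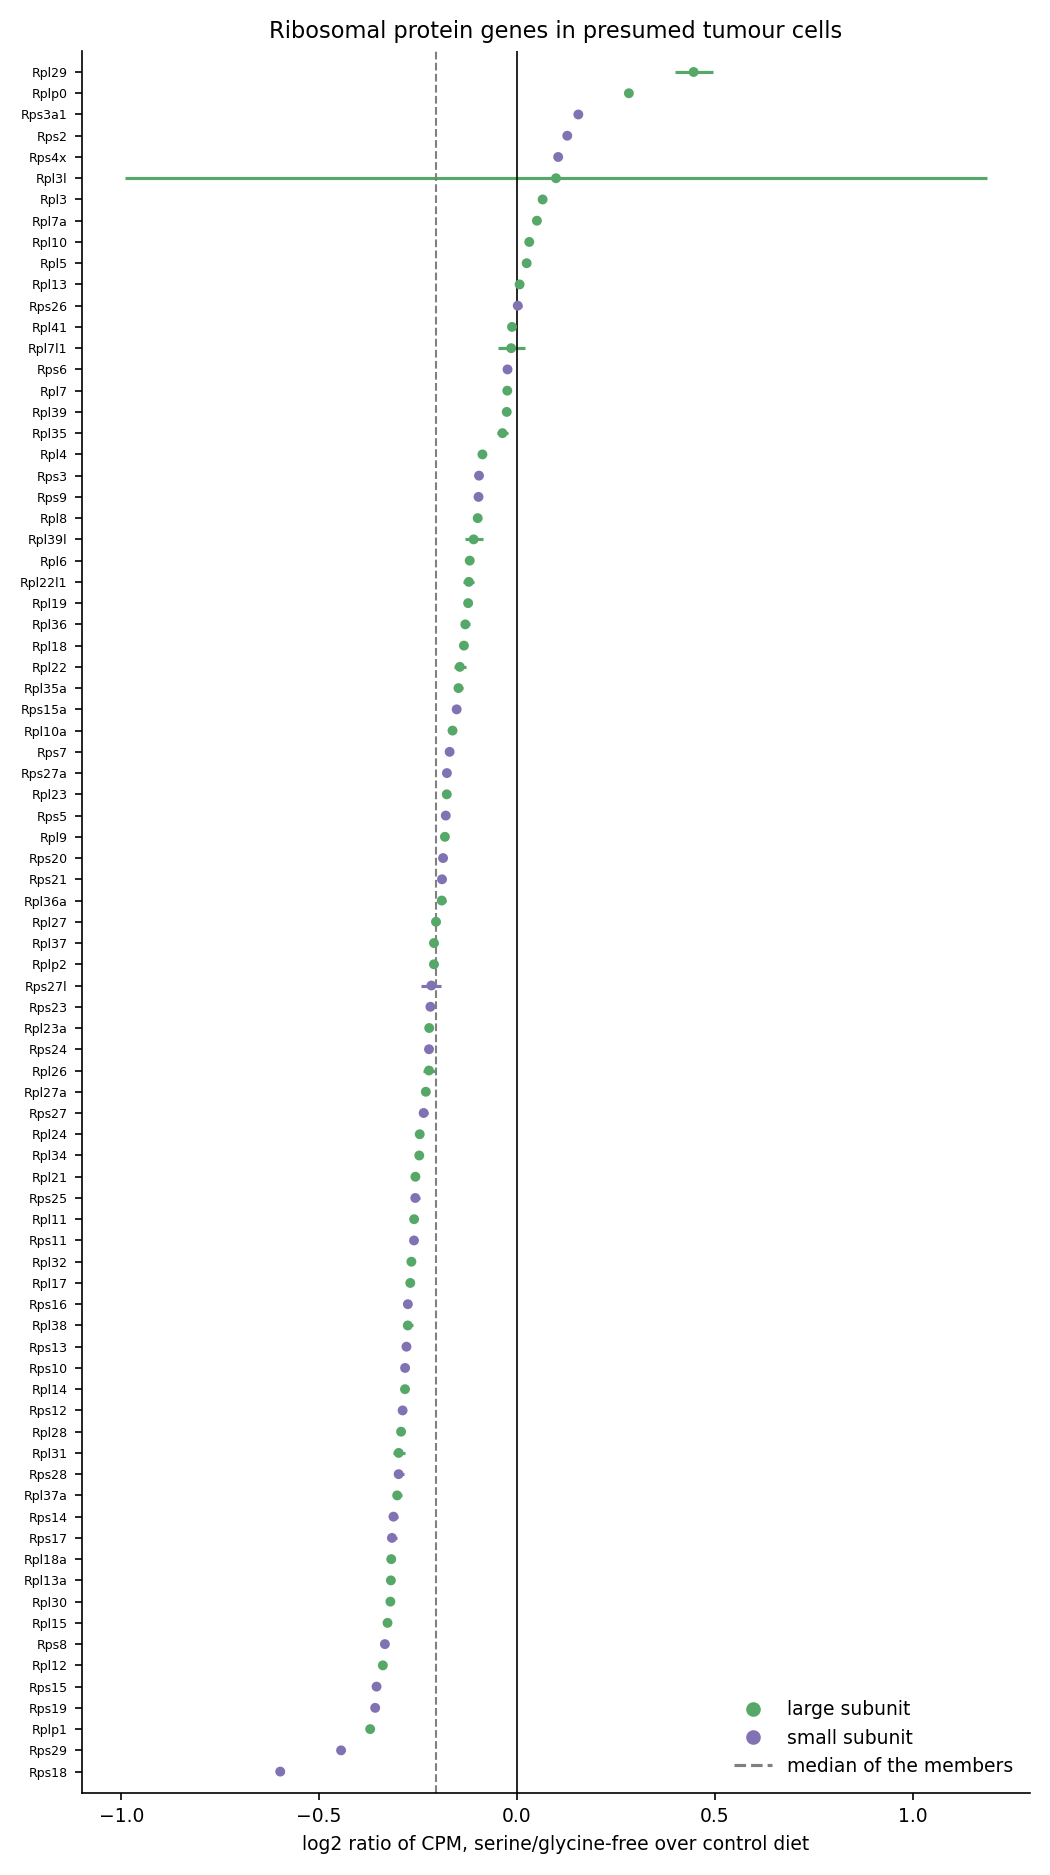
Log2 ratio of CPM (SG-free over control, x axis) of the 81 members in presumed tumour cells (y axis), with 95% counting intervals as lines; colour gives the subunit, the dashed line the members' median of -0.20. Rps18 lies alone at the bottom (-0.60), Rplp0 (0.28) and Rpl29 (0.45) at the top, and the interval of the sparse Rpl3l is wide.

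In most other classes the members also sat below the rest of the genes. In monocyte/macrophage-like cells 71 of 80 members were lower, against 49.9% of all genes, and the median was -0.25 against 0.00 for all genes. With doublets kept, 62 of 80 were lower and the median was -0.15. In T-like cells 63 of 80 were lower, against 46.8% of all genes, with a median of -0.22 against 0.03. Without the T-like cluster rich in tumour-marker RNA, 70 of 80 were lower and the median was -0.24. NK-like cells had 73 of 80 lower (43.8% of all genes) and a median of -0.33. Dendritic-like cells had 69 of 80 lower (44.2% of all genes) and a median of -0.23, and fibroblast-like cells 64 of 80 (47% of all genes) and -0.13. Over these 6 classes, which come from the same 2 libraries, 58 of 80 members with at least 20 UMIs in each were lower in all of them, against 4.7% of 6402 genes. The 4 members that were higher in all 6 were Rps3a1, Rpl5, Rpl10 and Rpl29, against 7.62% of genes. Neutrophil-like cells, outside these 6, went the other way. There 3 of 80 members were lower, against 2613 of 6796 genes, and the median was 0.55 against 0.27 for all genes. Endothelial-like cells had 47 of 80 lower, against 3244 of 6575 genes, and a median of -0.03 against 0.01.

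The members that lay furthest from their class's median, among those with at least 100 UMIs in each library, included several from the tumour cells. In T-like cells they were Rps2, at 3181 and 4162 CPM (log2 0.39), and Rplp0 (0.30). In dendritic-like cells they were Rplp0 (0.21) and Rps3a1 (0.18), and in fibroblast-like cells Rps18 (-0.63) and Rps4x (0.21). NK-like cells had Rpl5 (0.04) and Rpl22l1 (0.04), both near 0 beside a median of -0.33. Monocyte/macrophage-like cells had Rpl39l (0.63), described below, and Rpl29 (0.35). Rps2 was not high in every class, with -0.10 in NK-like and 0.03 in monocyte/macrophage-like cells. T-like cells, where Rps2 and Rplp0 were high, carried tumour-marker RNA at 25.9% and 45.0% of the tumour level (control, SG-free). The part of tumour RNA in the T-like ratios was not tested.

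Coding length, which the choice of members did not use, went with the ratio in part. In presumed tumour cells 22 members with at least 100 UMIs in each library had a coding sequence of 600 bases or more, and their median log2 ratio was -0.02, with 13 of 22 lower. The 30 members of 400 to 600 bases had a median of -0.26 with 29 lower, and the 28 members under 400 bases one of -0.21 with 27 lower. Spearman's rho between coding length and the log2 ratio was 0.36 over 80 members, a description across genes that share their libraries. In T-like cells the 3 medians were 0.07, -0.28 and -0.22 and rho was 0.49. In monocyte/macrophage-like cells they were -0.10, -0.31 and -0.23 and rho was 0.23. NK-like, dendritic-like and fibroblast-like cells gave rho of 0.37, 0.41 and 0.32. With the length of the annotated mRNA, which is less reliable for some members, rho was lower in each class, at 0.25 in presumed tumour, 0.13 in monocyte/macrophage-like, 0.34 in T-like, 0.24 in NK-like, 0.39 in dendritic-like and 0.15 in fibroblast-like cells. The highest member in presumed tumour cells, Rpl29, has a coding sequence of only 480 bases. Rpl41, which encodes the shortest ribosomal protein, also broke the order, with a log2 ratio of -0.01 at a coding length of 75 bases. Rpl4 had the longest coding sequence, 1257 bases, and a ratio of -0.09.

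**Figure D4:**
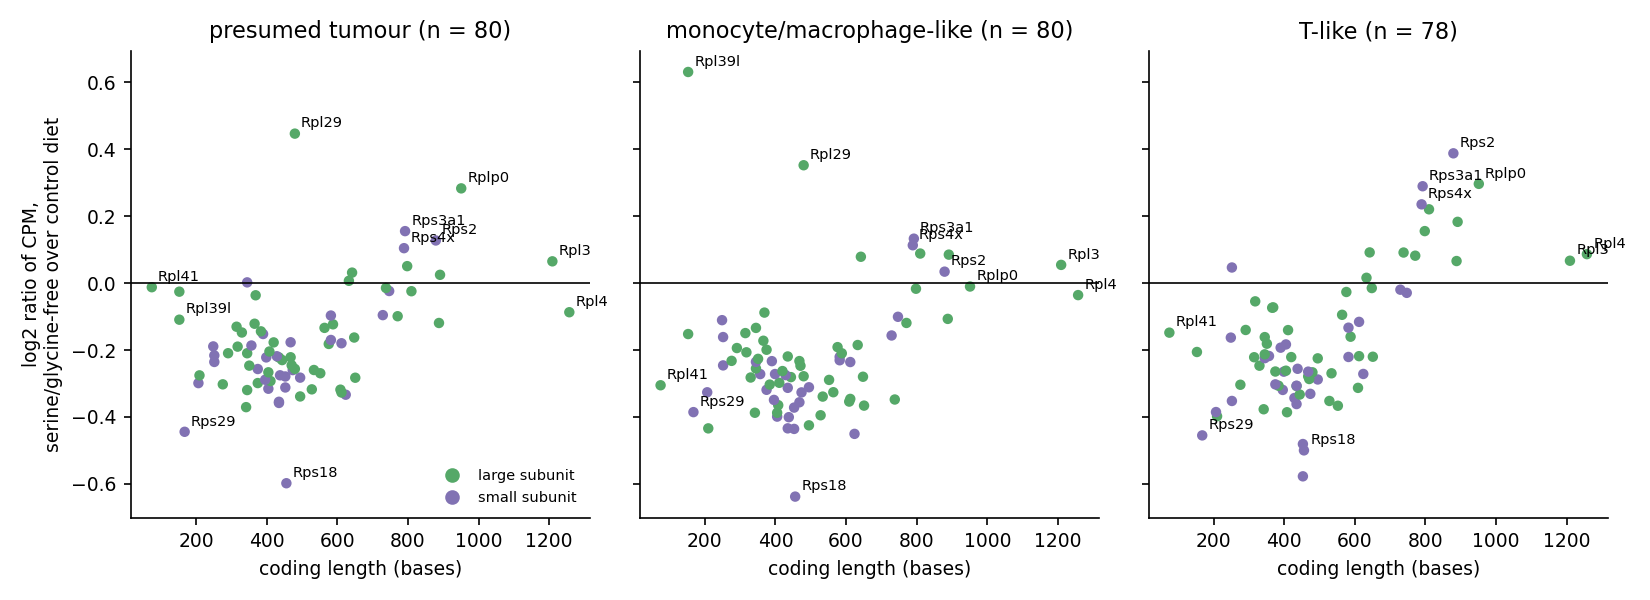
Log2 ratio of CPM (SG-free over control, y axis) against coding length in bases (x axis) for members with at least 100 UMIs in each library, in presumed tumour cells, monocyte/macrophage-like cells and T-like cells. Points are genes, coloured by subunit. Members with the longest coding sequences lie near or above 0 in all 3 classes, and Rps18 lies near the bottom in each.

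Other genes showed a related order at the short end. Among genes outside the members with at least 100 CPM in both libraries, those with a coding sequence under 400 bases had a median log2 ratio of -0.07 in presumed tumour cells (94 of 160 lower), those of 400 to 600 bases 0.03 (93 of 224 lower) and longer ones 0.05 (414 of 1082 lower). In monocyte/macrophage-like cells these medians were -0.15, -0.04 and 0.01. In both classes the members' median was below that of those genes in each range of length. In T-like cells this held under 600 bases, but members of 600 bases or more had a median of 0.07, above that of the other genes. The part of RNA length, of capture or of fragment size in these differences was not tested.

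The make-up of the ribosomal protein pool also differed between cell classes, apart from diet. For each class the share that a member took of all ribosomal protein UMIs was divided by its share in presumed tumour cells of the same library. Most members kept about the same share: both ratios were within 0.5 on the log2 scale for 64 of 80 members in monocyte/macrophage-like cells, 70 of 78 in T-like cells, 65 of 76 in NK-like cells, 67 of 77 in dendritic-like cells and 76 of 77 in fibroblast-like cells. These classes carried tumour-marker RNA themselves, at 25.9% and 45.0% of the tumour level in T-like and 25.8% and 29.6% in fibroblast-like cells. It was lower in monocyte/macrophage-like cells, at 5.10% and 8.77%. The part of tumour RNA in these ratios was not tested. Rps14, which lies near the mRNA exit of the small subunit, was the member most often set apart. It took 0.525% of ribosomal protein UMIs in control presumed tumour cells and 0.461% in the SG-free ones, but 1.04% and 0.883% of those of monocyte/macrophage-like cells. In NK-like cells it took 1.11% and 0.927%. Its log2 ratio to tumour cells was 0.60 to 1.08 over the 5 classes and both libraries.

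Other members differed from their tumour share to a degree that varied between classes. Monocyte/macrophage-like cells held Rps29 at 0.91 and 1.04 above its tumour share, dendritic-like cells at 0.77 and 0.63, but fibroblast-like cells at 0.05 and 0.09. Rpl38, a small protein of the large subunit, was highest in NK-like cells (0.89 and 0.82). Rps13 was 0.79 and 0.56 above in T-like cells and 0.70 and 0.64 in NK-like cells, and between 0.36 and 0.62 above in the other 3 classes. Rps15a was 0.63 and 0.57 above in T-like cells and 0.60 in both libraries of NK-like cells. Rpl22, best known for its need in T-cell development, was above its tumour share in all 5 classes, by 0.40 and 0.46 in fibroblast-like cells.

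Of the paralogs, Rpl39l was set furthest apart between classes. It differs from Rpl39 at 23 of 153 bases of the coding sequence (85.0% identity) and at 3 of 51 residues. Both coding sequences are shown, without the stop codon, because the counts of the pair can only be told apart through differences of this kind and through their untranslated ends; capitals mark the bases that differ.
Rpl39 (gene at chrX:37082520-37085402, mm10, minus strand): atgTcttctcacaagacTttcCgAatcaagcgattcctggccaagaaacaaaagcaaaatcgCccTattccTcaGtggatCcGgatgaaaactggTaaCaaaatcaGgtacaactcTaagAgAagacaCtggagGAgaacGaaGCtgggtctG
Rpl39l (gene at chr16:10170226-10174911, mm10, plus strand): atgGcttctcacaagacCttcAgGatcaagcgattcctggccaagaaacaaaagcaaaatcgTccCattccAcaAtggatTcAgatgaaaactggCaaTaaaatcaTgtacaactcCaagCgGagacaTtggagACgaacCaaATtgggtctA
In presumed tumour cells Rpl39l was at 225 and 208 CPM (log2 -0.11) and Rpl39 at 1375 and 1351 CPM (-0.03). Outside them monocyte/macrophage-like cells held Rpl39l at 19.4 and 30.1 CPM, and T-like cells at 52.2 and 85.2 CPM. Its share of the ribosomal protein pool there differed on the log2 scale from that in tumour cells by -2.78 and -1.97 in the former and by -1.92 and -1.13 in the latter, while Rpl39 was within 0.36 of its tumour share in all 5 classes.

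The Rpl39l level outside the tumour cells was set beside the tumour-marker RNA of the same cells, and the pair was close in several classes. As a percent of the level in presumed tumour cells, Rpl39l stood at 23.2% and 40.9% in T-like cells, where Hmga2, Rhox5 and Krt20 together stood at 25.9% and 45.0%. In fibroblast-like cells the values were 25.7% and 32.4% for Rpl39l and 25.8% and 29.6% for the markers. In dendritic-like cells they were 16.2% and 14.5% against 14.9% and 15.4%. Monocyte/macrophage-like cells had 8.64% and 14.4% against 5.10% and 8.77%, and NK-like cells 4.56% and 14.6% against 2.55% and 11.1%, the former from 8 and 24 UMIs. Other classes departed: B/plasma-like cells had 74.0% (13 UMIs) and 62.4% against 37.8% and 58.1%, opposite in direction, and neutrophil-like cells 54.01% and 68.5% against 45.1% and 86.5%. Rpl39l was higher in the SG-free library in monocyte/macrophage-like cells (log2 0.63, 0.33 to 0.94) and in T-like cells (0.70, 0.37 to 1.03), where the tumour-marker RNA was higher as well, but not measurably in dendritic-like cells (-0.26, -1.03 to 0.50). The part of tumour RNA in these counts was not tested.

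Rps27l, a paralog of Rps27 and a target of p53, was at 193 and 166 CPM in presumed tumour cells (log2 -0.22), close to Rps27 at 925 and 785 CPM (-0.24). Its share of the pool was above that in tumour cells for monocyte/macrophage-like cells, by 0.59 and 0.63, and for fibroblast-like cells, by 0.50 and 0.42, and below it in T-like (-0.53 and -0.30) and NK-like cells (-0.68 and -0.33). Rpl22l1, the paralog of Rpl22, was at 609 and 560 CPM in tumour cells (-0.12) beside Rpl22 at 550 and 498 CPM (-0.14). In dendritic-like cells Rpl22l1 stood at -0.77 and -0.78 from its tumour share while Rpl22 was 0.46 above it in both libraries. Rpl7l1, which acts in ribosome assembly, was at 98.03 and 97.1 CPM in tumour cells (-0.01) and was 0.86 and 0.60 above its tumour share in monocyte/macrophage-like cells. Rpl3l, the form of striated muscle, had 13 UMIs in the tumour cells of each library, too few for a ratio (log2 0.10, -0.99 to 1.19).

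**Figure D5:**
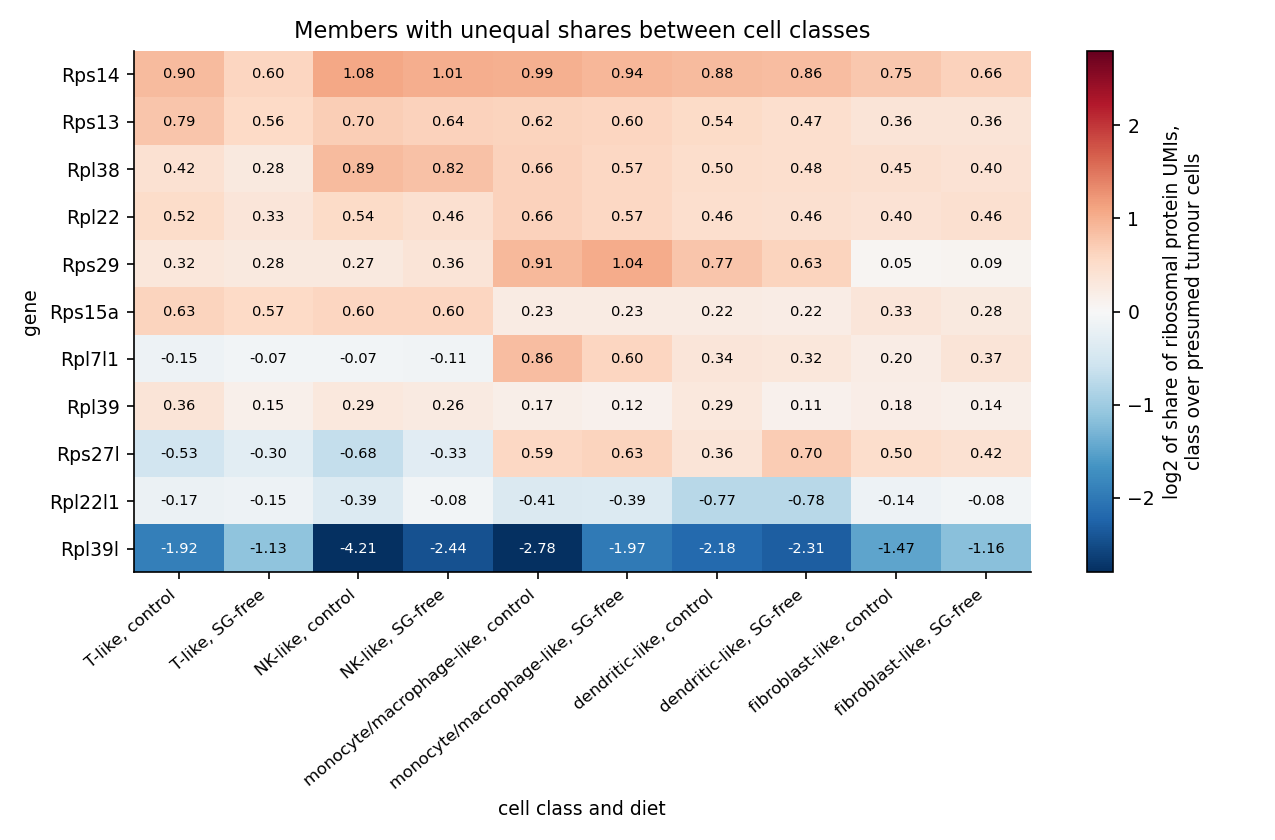
Log2 of a member's share of ribosomal protein UMIs in a class over its share in presumed tumour cells of the same library, for 11 members, paralogs among them (y axis), by class and diet (x axis); the colour scale is capped and the numbers give the values. Rps14 is above its tumour share in all 10 columns (0.60 to 1.08), and Rpl39l is below it in all 10, down to -4.21 in control NK-like cells with 8 UMIs.

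Lists of genes that work with the ribosomal proteins had medians between -0.25 and 0.08 in presumed tumour cells, beside -0.20 for the members. Among ribosome genes outside the naming pattern, Fau (1911 and 1675 CPM, log2 -0.19) and Rpl36al (373 and 322 CPM, -0.21) were lower in presumed tumour cells, Rpsa (6647 and 6858 CPM, 0.05) was slightly higher, and Rack1 was at 4943 and 4989 CPM (0.01). Among 20 elongation factors and other TOP mRNAs, 7 were lower and 13 higher, with a median of 0.06. The lowest were Eif3k (-0.20) and Eef1b2 (-0.17) and the highest Eif3f (0.13) and Btf3 (0.18). Btf3 was higher in 11 of 11 tumour clusters.

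The long non-coding host genes of small nucleolar RNAs, several of which begin with a TOP tract too, were the list lowest in the SG-free library, with 8 of 9 lower in presumed tumour cells and a median of -0.25. Gas5 was at 413 and 292 CPM (-0.50) and Snhg12 at 73.1 and 49.0 CPM (-0.58), both lower in 11 of 11 clusters. Snhg5 was near 0 (-0.05), and Snhg3 was the exception at 8.33 and 10.52 CPM (0.34).

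Ribosome assembly and the making of ribosomal RNA showed smaller differences. Of 39 assembly factors 29 were lower and 10 higher in presumed tumour cells, with a median of -0.06, from Utp4 (-0.31) and Nop58 (-0.26), a core protein of methylation-guide particles, to Utp15 (0.08) and Eif6 (0.13), which keeps the large subunit from joining early. Of 13 genes of RNA polymerase I and its factors 7 were lower (median -0.0032), from Polr1a (-0.27) and Twistnb (-0.13) to Taf1b (0.06) and Polr1c (0.10). Initiation factors were split, 10 of 19 lower (median -0.01), with Eif5b at -0.35, Eif3j1 at -0.27, Eif4e at 0.11 and Eif4a1 at 0.18. Of 78 mitochondrial ribosomal protein genes 51 were lower (median -0.05), from Mrpl34 (-0.30) and Mrpl14 (-0.25) to Mrpl11 (0.20) and Mrpl43 (0.25). For all these counts the share of all genes that were lower was 44.7%.

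In the list of mTORC1 and translation control genes 14 of 19 were higher in presumed tumour cells, with a median of 0.08. Ddit4, an mTORC1 inhibitor that starvation and low oxygen induce, had the largest ratio, at 10.1 CPM in the control library and 24.5 CPM in the SG-free library (log2 1.28, 1.19 to 1.37), and was higher in 11 of 11 clusters. Sesn1, a leucine-sensing inhibitor of the same pathway, was at 20.6 and 24.9 CPM (0.27). Deptor (-0.32) and Tsc2 (-0.22), which also inhibit this pathway, were the lowest, so the named inhibitors went both ways. Of 14 p53 targets, which respond to free ribosomal proteins among other signals, 9 were lower (median -0.06). That list ran from Btg2 (-0.58) and Trp53inp1 (-0.46) to Mdm2 (0.20) and Ccng1 (0.24). Of all genes in presumed tumour cells, 44.7% were lower.

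The lists had different counts in the classes; this was not tested. In T-like cells, where 46.8% of all genes were lower, 26 of 39 assembly factors were higher (median 0.12) and 17 of 20 elongation and TOP genes were higher (median 0.11), while in monocyte/macrophage-like cells, where 49.9% of all genes were lower, 31 of 39 assembly factors were lower (median -0.14) and the elongation and TOP genes were split 10 to 10. The members themselves were lower in both classes. T-like cells carried more tumour-marker RNA in the SG-free library, as given above, and its part in these lists was not tested.

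Near-identical copies limit the counts of single members. Pseudogenes at least 98% identical to the coding sequence were found in the annotation for 63 of 81 members, 228 in all, with the largest numbers for Rpl21 (15) and Rpl7a (10), and none of these was a feature of the tables. Copies that the tables do list had few UMIs beside their parents: Rpl9-ps6 had 27582 and 23863 against 1035931 and 910942 for Rpl9, and Rps27rt had 7881 and 5866 against 157498 and 134953 for Rps27. The sources used here do not give how reads that match several copies were counted.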

How the data were processed

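Per the labels, RNA of single cells was captured with 10x Genomics 3′ v2 chemistry. The deposited tables hold raw UMI counts per gene and barcode, which the authors produced in Cell Ranger (version 7.0.1 per the file headers and 2.2.2 with build mm10 per the submitters' processing notes). The libraries held 14774 and 20662 barcodes and 173785388 and 173592046 UMIs (control, SG-free). Cells with at least 500 UMIs, 300 genes and at most 20% mitochondrial UMIs were kept, and Scrublet removed 571 (4.03%) and 1206 (5.94%) as doublets. Clustering (scanpy 1.11.5, 2000 variable genes, 30 components, Leiden resolution 1.0) left out 88 genes of the naming pattern and pseudogenes. Clusters were named from marker lists, and those that met no class list and no leukocyte list were taken as presumed tumour cells. Hmga2, Rhox5 and Krt20 did not enter that choice. Binomial intervals on shares are exact (Clopper-Pearson), and those on ratios treat UMIs as independent counts, so both cover counting error only. Counts were also simulated with Poisson error only, the error these intervals assume, from the summed counts of a class. The 95% intervals held the true ratio for 94.9% of 13378 genes with sums of presumed tumour cells, 95.1% of 9151 for monocyte/macrophage-like cells and 95.3% of 7778 for T-like cells. The simulation held no spread between cells, animals or libraries, so it cannot show whether the intervals cover such spread. With 1 library per diet no test was made.

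Gene positions and coding lengths are from GENCODE vM21 (GRCm38, the same assembly as mm10), promoters from RefSeq (GRCm38.p6), and pseudogenes were matched with blastn 2.17.0. The members and lists were chosen with earlier results of these data known. Named were the 5 members with the most UMIs, departing members, paralogs, in other classes the 3 members furthest in pool share and the 2 furthest in diet ratio, and the 2 highest and 2 lowest genes of each list. Rpl3, Rpl4, Rpl5, Rpl9, Rpl12, Rpl15, Rpl22, Rpl39, Rpl41, Rplp1, Rplp2, Rps27, Rps29 in tumour cells and Rack1 were added for their role or after their values were seen. A gene of the lists is not reported here. Alternatives changed thinning, filters, scaling, pseudocount, doublets and class definition.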

Additional observations from a re-analysis of the deposited data

Results flagged for a closer look

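The ribosomal protein share of neutrophil-like cells differed from that of presumed tumour cells in direction between the libraries: the log2 ratio of SG-free over control was 1.34 in the former and -0.13 in the latter. The difference between these ratios was not tested, since each diet had 1 library. The neutrophil-like value rests on 34 control and 81 SG-free cells with at least 1000 UMIs. Without thinning, over 123 and 198 cells, the log2 ratio was 0.66.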

How the results depend on the processing

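In presumed tumour, monocyte/macrophage-like and T-like cells, the classes recomputed here, each alternative kept the share ratio and the members' median below 0. The endothelial-like ratio, -0.03, was 0.08 without thinning. In presumed tumour cells the log2 ratio of the share, -0.13, became -0.12 without thinning, -0.14 without mitochondrial UMIs in the denominator, -0.12 with classes from a per-cell marker gate, -0.13 at a 10% mitochondrial limit, -0.12 with ribosome genes outside the naming pattern added, -0.14 as an equal-weight mean over clusters, -0.18 as a mean over bins of depth and -0.12 without the haemoglobin-led cluster. In monocyte/macrophage-like cells -0.24 became -0.22 at 2000 UMIs per cell, -0.20 without thinning, -0.17 with doublets kept, -0.17 with the gate and -0.27 in cells with no tumour-marker UMI. In T-like cells -0.11 became -0.15 at 2000 UMIs, -0.10 without thinning, -0.087 with doublets kept, -0.10 with the same genes added and -0.14 without the cluster rich in tumour-marker RNA. The members' median in presumed tumour cells, -0.20, became -0.25 with CPM that left out mitochondrial and ribosomal protein UMIs, and that in monocyte/macrophage-like cells, -0.25, became -0.15 with doublets kept. The 6 departing members became 13 at a departure of 0.2 and 1 at 0.5. The cause of these shifts was not tested. Leaving out the haemoglobin-led cluster, the T-like cluster or cells with tumour-marker UMIs was chosen after seeing the data. Leaving out a replicate was not run, because each diet had 1 library. No paired analysis was possible because the groups hold 1 sample each. Depth limits Rpl3l, and 57 of 80 members reached 100 UMIs in each library in B/plasma-like, 65 in neutrophil-like and 75 in endothelial-like cells.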
